A study of Mus musculus with 48 samples.

Results

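The immunoglobulin heavy chains of the lacrimal gland (LG) were compared between 10 C57BL/6 (B6) mice that had received feces of NOD.B10.H2b mice by gavage (NOD-FMT group) and 5 untreated mice, NC1-1 to NC1-5, that serve as B cell receptor (BCR) controls. Each mouse gave 1 LG library, so that 15 of the 48 libraries of the series were compared, and 9 LG libraries of mice gavaged with phosphate-buffered saline (PBS-T group) are given beside them. The members were chosen by group and tissue alone. NOD-FMT recipients were 5 weeks old at the start, drank ampicillin, vancomycin and metronidazole for 7 days and were then gavaged with 200 µL a day for 3 weeks. The feces came from 30 male donors more than 20 weeks old, of a strain used as a model of Sjögren's disease. PBS-T mice went through the same antibiotics and gavage without feces. The NC mice came from the same cohort and had neither antibiotics nor gavage. The antibiotics, the gavage and the transferred microbiota therefore cannot be told apart in a comparison of NOD-FMT with NC mice. All 10 recipients were given feces from the same set of donors. The labels describe the samples as biological replicates. The libraries hold heavy chain transcripts only, so no marker gene of the gland or of its B cells could be checked.

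The lacrimal gland secretes the aqueous part of tears, and its plasma cells supply the immunoglobulin A (IgA) that is carried across the epithelium onto the eye. A heavy chain variable region is assembled from a V, a D and a J gene segment, and the third complementarity-determining region (HCDR3) spans their junctions, where bases can be trimmed off or added without a template. After activation, B cells can switch the constant gene and can gain point mutations in the V segment by somatic hypermutation, so that a V segment identical to the germline gene marks a cell that has gained none. In the present data a clonotype is the set of sequences of a mouse with the same V gene, J gene and HCDR3 amino acids, and a count is 1 consensus sequence built from reads with the same molecular identifier. A mutation is a mismatch of a sequence to its assigned germline V gene, and a germline-containing clonotype has at least 1 sequence without any. In RNA from a whole gland, fewer B cells of a kind and less heavy chain RNA per cell cannot be told apart.

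The leading clonotype of each mouse, the most abundant after removal of sequences found in 3 or more LG libraries, is shown by its HCDR3. The removal took 23.4% of the counts of NOD-FMT 7 and 16.3% of those of NOD-FMT 5. Whether the same clonotypes lead without it was not examined. In the sequences, read 5′ to 3′ from the deposited sequences, capitals mark bases of the HCDR3 that had no counterpart or another base in the deposited germline alignment. Capitals can be added or mutated bases, or bases of a D segment that was not aligned. The sequences are given for 5 NC mice and for the 7 of 10 NOD-FMT mice whose leading sequence came with a germline alignment of the same length.
NC 1, IGHV1-53 and IGHJ1: gcaaCcaactgggacAggtacttcgatgtc
NC 2, IGHV11-2 and IGHJ2: atgagatGGGGGGgggacGGctttgactac
NC 3, IGHV1-53 and IGHJ2: gcaagaaactggAATTGGtactttgactac
NC 4, IGHV1-53 and IGHJ1: gcaagaaactgggacAggtacttcgatgtc
NC 5, IGHV1-9 and IGHJ4: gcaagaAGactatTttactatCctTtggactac
NOD-FMT 1, IGHV1-55 and IGHJ3: gcaagagacagGgcttac
NOD-FMT 2, IGHV2-2 and IGHJ1: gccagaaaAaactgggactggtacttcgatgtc
NOD-FMT 3, IGHV1-53 and IGHJ4: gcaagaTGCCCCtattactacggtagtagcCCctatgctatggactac
NOD-FMT 5, IGHV1-72 and IGHJ3: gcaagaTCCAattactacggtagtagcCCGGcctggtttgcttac
NOD-FMT 6, IGHV7-3 and IGHJ2: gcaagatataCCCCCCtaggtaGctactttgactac
NOD-FMT 8, IGHV1-9 and IGHJ2: gcaagAGGGGGCGactactttgactac
NOD-FMT 10, IGHV10-1 and IGHJ1: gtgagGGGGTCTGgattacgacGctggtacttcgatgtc
IGHV1-53 led in 3 of 5 NC mice and in 1 of 10 NOD-FMT mice. The NC 1 and NC 4 sequences encode ATNWDRYFDV and ARNWDRYFDV, which differ at 1 residue, and the NC 4 clonotype was also present in NC 1 with 2518 counts.

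The second set of sequences shows clonotypes that several NOD-FMT mice and no NC mouse held, to show where mice with the same HCDR3 protein had the same nucleotides and where they did not. Each line gives the most frequent version in that mouse, with capitals as above.
TRLGFAY, IGHV6-6 and IGHJ3, NOD-FMT 1: accaggctgggatttgcttac
TRLGFAY, IGHV6-6 and IGHJ3, NOD-FMT 2: accaggctgggTtttgcttac
TRLGFAY, IGHV6-6 and IGHJ3, NOD-FMT 8: accaGATTGGggtttgcttac
TRLGFAY, IGHV6-6 and IGHJ3, NOD-FMT 9 and NOD-FMT 10: accagGCTTGggtttgcttac
TRYFDV, IGHV6-3 and IGHJ1, NOD-FMT 2 and NOD-FMT 6: aCGAggtacttcgatgtc
TRYFDV, IGHV6-3 and IGHJ1, NOD-FMT 3: acAAGAtacttcgatgtc
TRYFDV, IGHV6-3 and IGHJ1, NOD-FMT 4: aCGAGAtacttcgatgtc
TRYFDV, IGHV6-3 and IGHJ1, NOD-FMT 7: aCCCggtacttcgatgtc
TRYFDV, IGHV6-3 and IGHJ1, NOD-FMT 10: acAAggtacttcgatgtc
TGQGFAY, IGHV6-3 and IGHJ3, NOD-FMT 2, NOD-FMT 3 and NOD-FMT 10: acagGCCAGGggtttgcttac
TGQGFAY, IGHV6-3 and IGHJ3, NOD-FMT 4: acagGCCAAGGAtttgcttac
TGQGFAY, IGHV6-3 and IGHJ3, NOD-FMT 6: acagGGCAAGggtttgcttac
ASQLGRGYWYFDV (IGHV7-3 and IGHJ1), 1 of 3 clonotypes held by all 5 NC mice and no NOD-FMT mouse, had the same HCDR3 nucleotides in all 5, with 2 to 6 counts per mouse and 1055 counts in the library of PBS-T 5.
ASQLGRGYWYFDV, NC 1 to NC 5: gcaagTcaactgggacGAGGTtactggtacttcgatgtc

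Depth and clonotype numbers overlapped between the groups, but most NOD-FMT libraries were deeper than every NC library. After removal of nucleotide sequences found in 3 or more LG libraries, the NC libraries held 80575, 64684, 76279, 56729 and 75358 counts and the NOD-FMT libraries 53623 to 264365, with a median of 144958. The removed sequences made up 0.307 to 1.166% of NC counts and 0.143 to 23.4% of NOD-FMT counts. The libraries of NC 4 and of 6 NOD-FMT mice were marked as merged. A count of 0 allows a share of up to 0.00372 to 0.00529% of counts in NC libraries and up to 0.00113 to 0.00559% in NOD-FMT libraries, at 3 counts per library. These limits, and the 95% intervals given below, cover counting error only.

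The libraries of NC 2 and NC 3 were not separate in their sequences. They shared 806 identical nucleotide sequences, which held 11.3% of NC 2 counts and 93.9% of NC 3 counts, while the other 104 pairs of the 15 libraries shared 0 to 14 with a median of 1. The 474 clonotypes in both had a median ratio of 0.105 of the NC 2 count to the NC 3 count. NC 2 and NC 4 shared 3 sequences that made up 12.7% of NC 2 counts. Results are therefore also given without NC 2 and NC 3 where this was run. In some NOD-FMT pairs few shared sequences held many counts of 1 mouse. The 5 shared by NOD-FMT 3 and NOD-FMT 4 made up 22.5% of NOD-FMT 4 counts and had 11 counts in NOD-FMT 3. The 2 shared by NOD-FMT 3 and NOD-FMT 6 made up 13.8% of NOD-FMT 6 counts and had 3 counts in NOD-FMT 3. The leading clonotypes of NOD-FMT 4, 6 and 8 had 1, 2 and 1 counts in NOD-FMT 3.

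Clonotypes of both groups were also held by PBS-T libraries, and those of the NC mice mostly by 1 of them. The library of PBS-T 5 held 17213 clonotypes, and 161 of 927 clonotypes of NC 1, 104 of 1015 of NC 2, 304 of 1089 of NC 3, 303 of 1033 of NC 4 and 180 of 898 of NC 5 were in it. The other 8 PBS-T libraries, of 560 to 976 clonotypes, held 4 to 102 distinct NC clonotypes each, of which 2 to 14 were not in PBS-T 5, against 835 in PBS-T 5. Of the NOD-FMT clonotypes these 8 libraries held 17 to 102 each, of which 9 to 100 were not in PBS-T 5, with the most in PBS-T 3 (102), PBS-T 1 (79) and PBS-T 6 (75), against 137 in PBS-T 5. Of the 1052 NC clonotypes held by PBS-T 5, counted in each mouse, 841 had 1 count, and together they made up 0.283 to 0.829% of the counts of an NC mouse. Among NOD-FMT mice the share of clonotypes held by PBS-T 5 was 0.179 to 6.46%, with a median of 0.694%. The part of these rare clonotypes in the results was handled by leaving them out, and by repeating each result on clonotypes with at least 5 counts, of which only 2 to 8 per NC mouse were held by PBS-T 5. Clonotypes with at least 5 counts numbered 232 to 470 in NC mice and 209 to 685 in NOD-FMT mice, and held 98.4 to 99.2% and 98.9 to 99.6% of the counts.

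The HCDR3 of NOD-FMT mice carried more positive charge than that of NC mice. Charge was taken as the number of lysine and arginine residues minus that of aspartate and glutamate in each HCDR3, and was averaged over clonotypes. The mean charge was -0.215 in NC 1, -0.106 in NC 2, -0.147 in NC 3, -0.237 in NC 4 and -0.127 in NC 5, and in NOD-FMT mice it ran from -0.125 over a median of 0.114 to 0.238. All 5 NC mice lay below 0, and NOD-FMT 6 alone reached into their range. The difference was 0.233 (0.0668 ± 0.135, SD, n = 10, against -0.166 ± 0.0567, n = 5; exact permutation test over mice, two-sided, p = 0.00133, adjusted over 10 measures p = 0.0133). It was the 1 of 10 measures of the repertoire that passed the test on all clonotypes, or 10%, and it passed with any 1 mouse left out.

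Among clonotypes with at least 5 counts the 2 groups did not overlap in charge. NC mice had -0.234, -0.149, -0.181, -0.216 and -0.0945, and NOD-FMT mice -0.0319 to 0.236 with a median of 0.0855. The difference of 0.262 had the smallest p this design allows (exact permutation test, p = 0.000666, adjusted p = 0.00222), and with this minimum 5 of 10 measures passed, or 50%. Without NC 2 and NC 3 it was 0.268 (exact permutation test, p = 0.00699, the smallest possible with 3 NC mice, adjusted p = 0.0233), and without the clonotypes of PBS-T 5 it was 0.253 (exact permutation test, adjusted p = 0.00222). On all clonotypes the difference was 0.260 without NC 2 and NC 3 and no longer passed (exact permutation test, p = 0.00699, again the smallest possible, adjusted p = 0.0699). At that p a single measure of 10 cannot pass the adjustment, so the lost call is no measure of the size of the difference. Without the clonotypes of PBS-T 5 the difference was 0.211 (exact permutation test, adjusted p = 0.0466). The call was also lost among libraries under 100000 counts, where the difference was 0.0843 (exact permutation test, adjusted p = 0.0794). Among libraries not marked as merged it was lost too, at a difference of 0.312 (exact permutation test, p = 0.0286, the smallest possible with 4 against 4 mice, adjusted p = 0.0952). Weighting each clonotype by its counts gave a difference of 0.193 that did not pass (exact permutation test, p = 0.232).

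Both kinds of charged residue contributed to the difference. Over clonotypes with at least 5 counts, an HCDR3 held 1.21 to 1.27 lysine or arginine residues on average in NC mice and 1.29 to 1.37 in NOD-FMT mice. Arginine, the more frequent of the pair, stood at 1.11 to 1.16 against 1.19 to 1.28. Aspartate and glutamate together stood at 1.37 to 1.44 in NC mice and 1.10 to 1.39 in NOD-FMT mice, so that these ranges overlapped. Clonotypes with a net positive HCDR3 were 22.9 to 30.3% of those of an NC mouse and 30.4 to 39.1% of those of a NOD-FMT mouse, and those with a net negative one 31.3 to 38.7% and 21.6 to 33.3%. Tyrosine, the most frequent of the residues examined, ranged from 2.24 to 2.49 per HCDR3 in NC mice and from 2.24 to 2.47 in NOD-FMT mice. These residue counts were looked at after the charge values were known and were not tested.

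**Figure D1:**
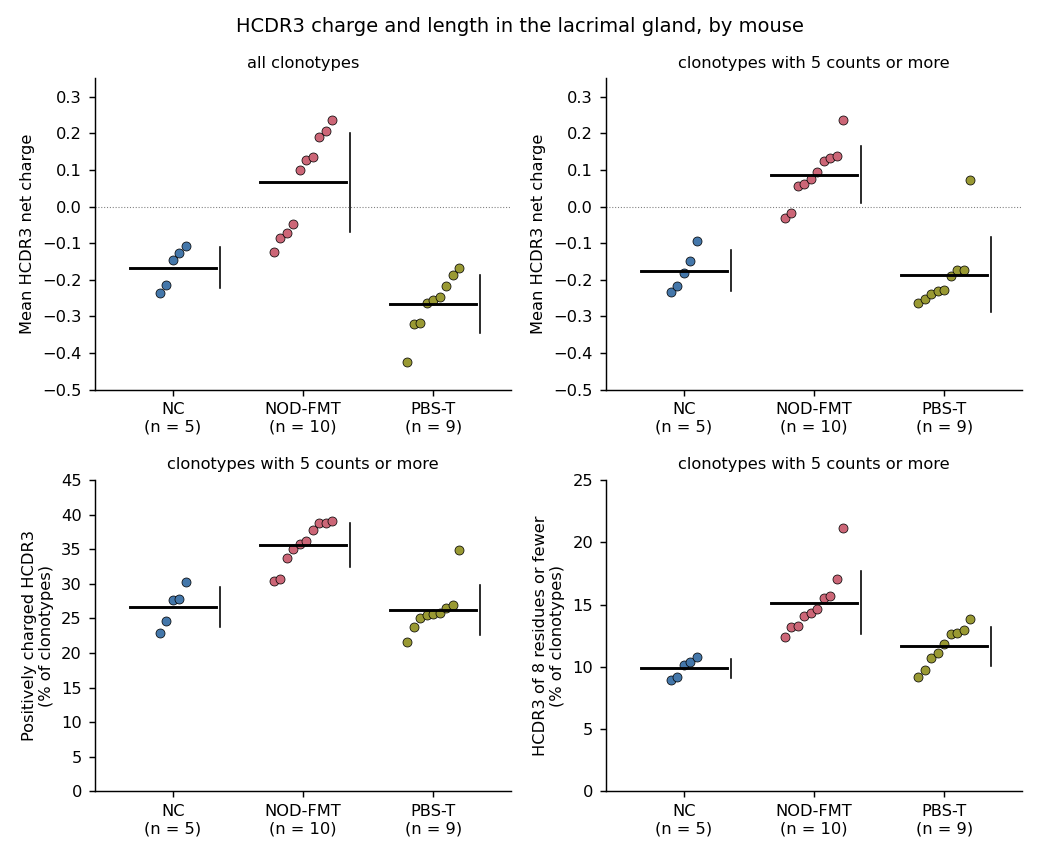
Each point is 1 mouse of the NC, NOD-FMT or PBS-T group, with the group mean as a bar and the SD as a thin line; the panels show the mean net charge of the HCDR3 over all clonotypes and over clonotypes with at least 5 counts, and for the latter the percent of clonotypes with a net positive HCDR3 and with an HCDR3 of at most 8 residues. In all 4 panels the NOD-FMT mean lies above the NC mean, and in the 3 panels restricted to at least 5 counts every NOD-FMT mouse lies above every NC mouse.

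HCDR3 length differed less. Over all clonotypes the mean length was 11.5 ± 0.399 residues in NOD-FMT mice and 11.7 ± 0.0885 in NC mice, a difference within the spread of the mice (exact permutation test, p = 0.380). In clonotypes with at least 5 counts NC mice had 11.9, 11.9, 11.9, 11.5 and 11.6 residues, and NOD-FMT mice averaged 11.4 ± 0.299, a difference of -0.338 (exact permutation test, adjusted p = 0.0250) that no longer passed without NC 1 (-0.316, exact permutation test, adjusted p = 0.0559), NC 2 (-0.310) or NC 3 (-0.296, both exact permutation tests with adjusted p = 0.0749) or without both NC 2 and NC 3 (-0.245, exact permutation test, adjusted p = 0.262). HCDR3s of at most 8 residues made up 8.94 to 10.8% of the clonotypes with at least 5 counts in NC mice and 12.4 to 21.2% in NOD-FMT mice, and those of at least 15 residues 11.8 to 18.7% and 6.90 to 17.7%. These length classes were looked at after the values were known and were not tested. Mean hydropathy, the average Kyte-Doolittle value per residue, differed by -0.0388 with at least 5 counts (exact permutation test, adjusted p = 0.0413), and this call was lost when 6 of the NOD-FMT mice or 3 of the NC mice were left out singly.

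The V segments of abundant NOD-FMT clonotypes carried fewer mutations than those of NC mice. With at least 5 counts per clonotype, NC 1 to NC 5 had 2.25, 2.57, 2.64, 2.96 and 2.51 mutations per clonotype, and NOD-FMT mice 0.778 to 2.05 with a median of 1.07. Every NOD-FMT mouse lay below every NC mouse, and NOD-FMT 1 with 2.05 and NOD-FMT 7 with 1.68 came nearest. The means were 1.14 ± 0.413 (n = 10) and 2.59 ± 0.254 (n = 5), a difference of -1.45 (exact permutation test, p = 0.000666, adjusted p = 0.00222).

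Germline-containing clonotypes were correspondingly more frequent. With at least 5 counts they made up 52.2, 46.7, 45.3, 44.0 and 48.4% of the clonotypes of NC 1 to NC 5 and 62.4 to 75.2% of those of NOD-FMT mice, with a median of 69.7%. The groups did not overlap, and the difference was 21.9 percentage points (69.2 ± 3.88% against 47.3 ± 3.19%, exact permutation test, p = 0.000666, adjusted p = 0.00222). Without NC 2 and NC 3 the differences were -1.43 mutations and 21.0 points (exact permutation test, p = 0.00699 for each, adjusted p = 0.0233), and without the clonotypes of PBS-T 5 they were -1.43 and 21.7 (exact permutation test, adjusted p = 0.00222 for each).

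Over all clonotypes, rare ones included, the same direction did not pass. NC mice had 2.25, 2.42, 2.79, 2.78 and 2.65 mutations per clonotype and NOD-FMT mice 1.04 to 2.81 with a median of 1.81, and NOD-FMT values thus spanned those of the NC mice. The difference was -0.740 mutations (exact permutation test, p = 0.0180, adjusted p = 0.0599) and 11.3 points of germline-containing clonotypes (55.9 ± 8.22% against 44.6 ± 3.02%, exact permutation test, p = 0.0127, adjusted p = 0.0599). Leaving out NOD-FMT 1 or NOD-FMT 7 moved both past the threshold (-0.848 and -0.843 mutations in this order, 12.8 points each). Without NC 2 and NC 3 the differences were -0.722 and 10.4 (exact permutation test, adjusted p = 0.233 for both), and without the clonotypes of PBS-T 5 they were -0.640 and 8.002 (exact permutation test, adjusted p = 0.198 for both).

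**Figure D2:**
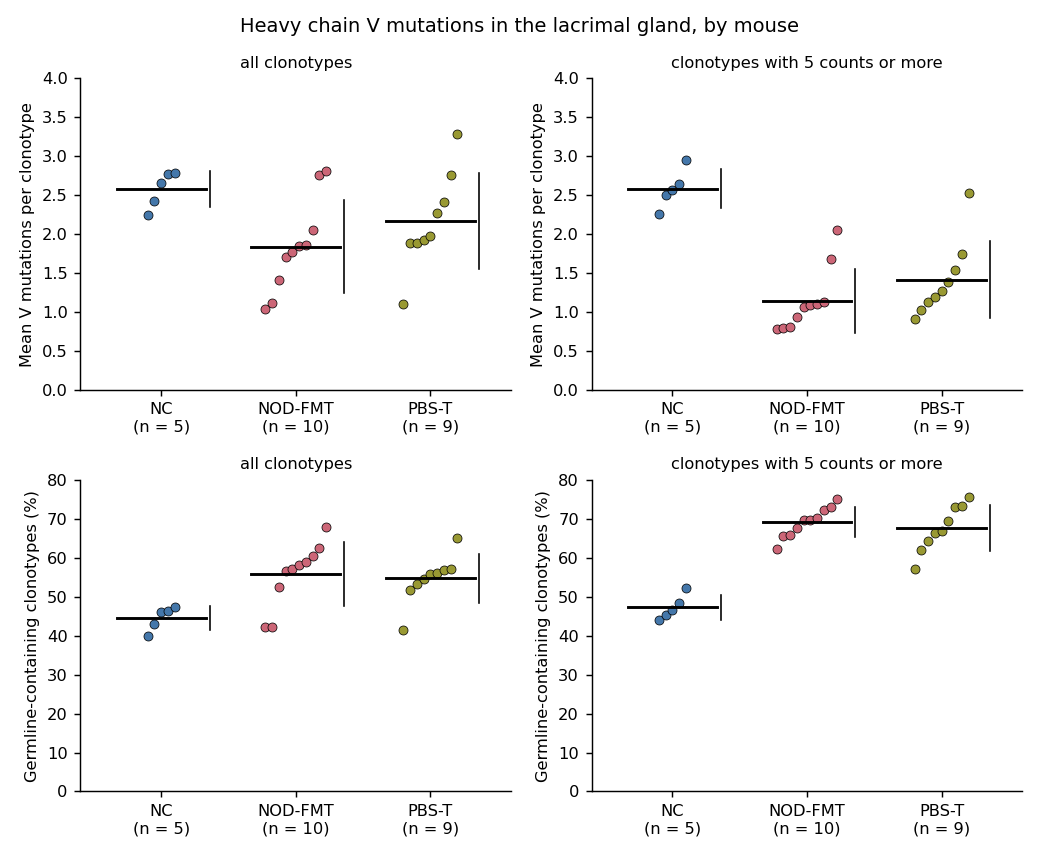
Each point is 1 mouse, with the group mean as a bar and the SD as a thin line, for NC, NOD-FMT and PBS-T mice; the upper and lower rows plot the mean number of V mutations per clonotype and the percent of germline-containing clonotypes, for all clonotypes and for those with at least 5 counts. The NOD-FMT and NC points are mixed over all clonotypes and apart with at least 5 counts, where the means are 1.14 and 2.59 mutations.

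The 2 groups overlapped among rare clonotypes and at 5 to 99 counts, and did not overlap among those of 100 counts or more. Among clonotypes of 1 to 4 counts the mean number of mutations was 2.25 to 2.90 in NC mice and 1.25 to 3.17 in NOD-FMT mice. At 5 to 99 counts it was 2.20 to 2.80 and 0.929 to 2.44, and at 100 counts or more 2.21 to 3.13 and 0.388 to 1.203. The NC medians over these sizes were 2.72, 2.63 and 2.28, and the NOD-FMT medians 2.30, 1.15 and 0.837, so that the medians lay closest in the rarest class. In the largest class, of 76 to 143 clonotypes per NC mouse and 80 to 267 per NOD-FMT mouse, germline-containing clonotypes made up 44.4 to 56.6% and 75.6 to 88.2%. Clonotypes with a mean of at least 5 mutations were 12.6 to 31.5% of that class in NC mice and 0.375 to 10.1% in NOD-FMT mice.

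**Figure D3:**
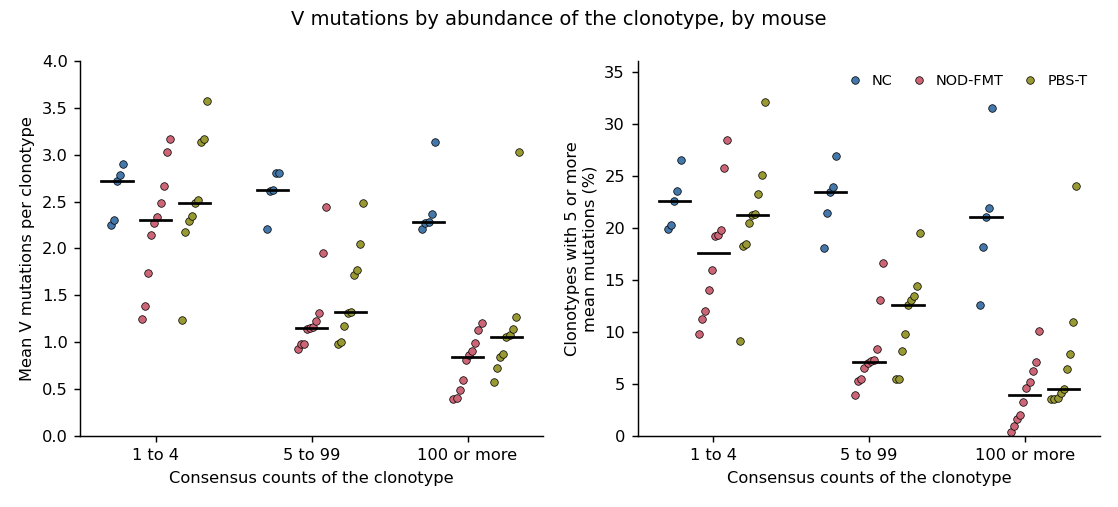
Mean V mutations per clonotype and the percent of clonotypes with a mean of at least 5 mutations are plotted by the number of counts of the clonotype (1 to 4, 5 to 99, 100 or more), with 1 point per mouse and the group median as a bar. At 100 counts or more the NOD-FMT mice lie between 0.388 and 1.203 mutations, below all NC mice at 2.21 to 3.13.

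Taken over counts in place of clonotypes, the difference also passed. The mean number of mutations per count was 0.699 ± 0.412 in NOD-FMT mice and 1.89 ± 0.536 in NC mice (difference -1.195, exact permutation test, p = 0.00133, adjusted p = 0.00666), and counts without a V mutation were 74.3 ± 7.80% and 50.1 ± 12.02% (difference 24.2 points, exact permutation test, p = 0.00266, adjusted p = 0.00666). These were the 2 of 5 measures that passed when weighted by counts, or 40%. Among IgA clonotypes, 662 to 948 per NC mouse and 505 to 2267 per NOD-FMT mouse, the mean was 2.54 to 3.37 mutations in NC mice and 1.07 to 2.95 in NOD-FMT mice, a difference of -1.08 (exact permutation test, adjusted p = 0.0260). These comparisons of mutations by counts and within IgA were not run without NC 2 and NC 3. IgM clonotypes, 43 to 252 per NC mouse, had 0.295 to 1.43 mutations in NC mice and 0.594 to 2.36 in NOD-FMT mice, with medians of 1.13 and 1.51 and no test.

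Merging and depth moved with the groups. The sequence names of a merged library fall in 2 series, and what the series stand for is not given. In the 7 merged libraries these series differed over all clonotypes by 0.281 to 1.66 mutations (median 0.618), by up to 27.99 points of germline-containing clonotypes and by up to 0.464 in charge. At 5 counts or more they differed by 0.00765 to 0.823 mutations (median 0.0409), by up to 8.66 points and by up to 0.197 in charge. Among libraries not marked as merged, 4 in each group, the differences at 5 counts or more were -1.64 mutations, 24.5 points of germline-containing clonotypes and 0.268 in charge (exact permutation test, p = 0.0286 for each, the smallest possible, adjusted p = 0.0714), as large as in all libraries but not past the threshold. Among libraries under 100000 counts, 4 NOD-FMT and 5 NC, they were -1.52, 21.0 and 0.197 (exact permutation test, p = 0.0159 for each, the smallest possible, adjusted p = 0.0529).

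With at least 5 counts, PBS-T means stood nearer to NOD-FMT mice in mutations and nearer to NC mice in charge. PBS-T mice had 0.906 to 2.53 mutations per clonotype and 57.3 to 75.6% germline-containing clonotypes, and NOD-FMT mice did not differ from them past the threshold (1.14 ± 0.413 against 1.42 ± 0.491 mutations, exact permutation test, p = 0.210). Other settings were mixed. By counts, PBS-T mice had 1.22 mutations (NOD-FMT 0.699, NC 1.89) but 61.1% of counts without one (NOD-FMT 74.3%, NC 50.1%), the latter nearer to NC mice. With minor clonotypes joined to ones at least 20 times as abundant, PBS-T mice had 2.06 mutations, against 1.47 in NOD-FMT and 2.54 in NC mice. In charge NOD-FMT mice were higher than PBS-T mice by 0.273 with at least 5 counts (exact permutation test, adjusted p = 0.00108). At this minimum PBS-T mice, at -0.263 to 0.0718, overlapped with NOD-FMT mice, at -0.0319 to 0.236. Over all clonotypes the difference was 0.333 (exact permutation test, p = 2.17e-05, adjusted p = 0.000217), and the PBS-T mice, at -0.425 to -0.169, did not overlap with the NOD-FMT mice. Charge and the IgA share were the 2 of 10 measures that passed against PBS-T mice over all clonotypes, or 20%, and with at least 5 counts HCDR3 length passed beside them, 3 of 10 or 30%. The length difference from PBS-T mice was -0.275 residues at 5 counts or more (11.4 ± 0.299 against 11.7 ± 0.159, exact permutation test, adjusted p = 0.0278) and lost its call without NOD-FMT 1, 6 or 7 or PBS-T 7 or 8, and over all clonotypes it was -0.109 (exact permutation test, p = 0.504). IgA was 96.7 ± 1.31% of counts in NOD-FMT mice and 75.2 ± 29.0% in PBS-T mice (exact permutation test, adjusted p = 0.0240), where PBS-T 2 and PBS-T 9 had 42.3 and 13.9%; this IgA call was lost without PBS-T 2, 3, 5, 8 or 9. NC and PBS-T mice were not tested against each other.

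IgA dominated the lacrimal glands of both groups. Its constant gene, IGHA (chr12:113254830-113260236 of GRCm38, minus strand, as all heavy chain genes named here), took 96.7, 88.6, 97.7, 97.3 and 97.8% of counts in NC 1 to NC 5 and 94.6 to 98.7% in NOD-FMT mice, with a median of 96.9%. NC 2 was the lowest of the 15 mice, and the difference of 1.11 points did not pass (exact permutation test, p = 0.545). None of the 8 constant genes passed, or 0%. IGHM, the constant gene of the first isotype made, took 1.13 ± 0.962% in NOD-FMT and 1.36 ± 1.22% in NC mice. Of the switched IgG isotypes IGHG2B took 1.59 ± 0.494% in NOD-FMT and 1.83 ± 1.34% in NC mice, and IGHG2C, the B6 counterpart of IgG2a, 0.410 ± 0.215% and 0.999 ± 1.44%. NC 2 carried the NC spread in all of these, with 4.14% IGHG2B, 3.57% IGHG2C and 3.50% IGHM. IGHD, which marks naive B cells, was rare throughout, at 0.00664 to 0.0740% in NC mice and 0.000765 to 0.0179% in NOD-FMT mice, and had the smallest p of the 8 (exact permutation test, p = 0.0286, adjusted p = 0.229).

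Size and evenness of the repertoires did not differ past the threshold. NC mice held 927, 1015, 1089, 1033 and 898 clonotypes and NOD-FMT mice 715 to 2504 with a median of 998.5 (log2 of the number 10.14 ± 0.66 against 9.95 ± 0.11, exact permutation test, p = 0.555). The number depends on depth, and the direction turned at closer depth. Under 100000 counts it was 9.61 ± 0.10 against 9.95 ± 0.11 (exact permutation test, p = 0.0159, the smallest possible, adjusted p = 0.0529). The difference was -0.21 with thinning to equal depth and -0.33 with minor clonotypes joined (exact permutation test, p = 0.192 and 0.0539). Pielou evenness, which is 1 when all clonotypes have equal counts, was 0.635 ± 0.0548 in NOD-FMT mice and 0.658 ± 0.0563 in NC mice (exact permutation test, p = 0.464). The 10 largest clonotypes took 42.4 ± 11.2% and 42.5 ± 12.02% of counts (exact permutation test, p = 0.968).

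The largest clonotype of a mouse took 15.02, 16.5, 12.5, 11.3 and 6.86% of counts in NC 1 to NC 5, and 3.50 to 26.3% with a median of 9.46% in NOD-FMT mice (means 12.5 ± 3.73% and 12.4 ± 7.44%, exact permutation test, p = 0.966). Among the 15 NC and NOD-FMT mice, NOD-FMT mice thus included both the least and the most dominated gland, while PBS-T mice ran from 1.80 to 29.0%. The NOD-FMT extremes were NOD-FMT 2, whose IGHV2-2 clonotype ARKNWDWYFDV had 3.50% (Wilson 95% interval 3.43 to 3.57%), and NOD-FMT 5, whose IGHV1-72 clonotype of 15 residues had 26.3% (26.1 to 26.6%). The IGHV5-16 clonotype AIYYYGSSYAMDY had 22.4% in NOD-FMT 4, and the IGHV11-2 clonotype MRWGGDGFDY had 16.5% in NC 2. The leading clonotype had a mean of fewer than 0.5 mutations in 8 of 10 NOD-FMT mice and in 3 of 5 NC mice, and 98.3 to 100% of its counts were IgA. With no sequences removed, the largest clonotype averaged 13.9% of counts in NOD-FMT and 12.4% in NC mice (exact permutation test, p = 0.710).

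Few clonotypes were common to the groups. The 15 mice held 16263 clonotypes, 4284 in NC and 12074 in NOD-FMT mice, of which 95 were in both (2.22% of those of NC mice and 0.787% of those of NOD-FMT mice). Clonotypes in 2 or more mice of a group numbered 609 in NC mice, where NC 2 and NC 3 alone shared 474, and 320 in NOD-FMT mice.

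Of the 5 clonotypes most widely held by NOD-FMT mice and no NC mouse, 4 used IGHV6 genes. IGHV6 made up 4.28 ± 1.53% of all clonotypes in NOD-FMT and 3.30 ± 0.292% in NC mice. Its share among clonotypes held by several mice was not examined, and the 4 of 5 were not tested. TRLGFAY was held by 5 mice with 449 to 1120 counts each and 6 HCDR3 nucleotide versions, and TRYFDV by 6 mice with 1 to 321 counts and 8 versions. TGDGFAY of IGHV6-3 was in 9 mice at 2 to 1227 counts with 16 versions, and TGQGFAY in 5 at 1 to 7058 with 7. In NOD-FMT 3 TGQGFAY had 1 count, with the version most frequent in NOD-FMT 2. Versions were in part common to mice: 5 whole nucleotide sequences of TRLGFAY, 1 of TRYFDV, 9 of TGDGFAY and 6 of TGQGFAY were identical in 2 mice, and sequences identical in 3 or more libraries had been removed. None of these 4 was in a PBS-T library. The fifth, ARRGDGYYFDY of IGHV1-76 and IGHJ2, was in 5 NOD-FMT and also in 5 PBS-T mice.

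The clonotypes most widely held by NC mice and no NOD-FMT mouse had few counts. ARIYYDYDWYFDV of IGHV1-18, ASQLGRGYWYFDV of IGHV7-3 and ARWWLLGAMDY of IGHV2-2 were in all 5 NC mice, and ASWDEGGFDY of IGHV1-26 and ARSGNYVDY of IGHV1-19 in 4, each with 1 to 8 counts per mouse and 1 to 2 nucleotide versions. The same clonotypes were in 2 to 4 PBS-T mice, with 914 to 2358 counts in PBS-T 5. Of the 5 clonotypes held by the most mice of both groups, AREVAYYGNYDY, AVDLLWLRRGSFDY and ARVWDLDC likewise had 3664, 3898 and 1298 counts in PBS-T 5. ARDYYGSSYWYFDV of IGHV7-1, whose HCDR3 matched the germline alignment throughout in the most frequent version of 7 of its 8 mice, and ARGGDYFFDY of IGHV3-6, at 10 to 34 counts in 3 mice of each group, had 5 and 57. The part of the PBS-T 5 library in the sharing among NC mice was not tested.

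In V family usage, IGHV3 and IGHV9 took a smaller and IGHV7 a larger share of clonotypes in NOD-FMT than in NC mice. IGHV3 made up 7.98, 5.02, 5.33, 7.36 and 5.12% of clonotypes in NC 1 to NC 5 and 1.90 to 6.06% in NOD-FMT mice, with a median of 2.96%. IGHV9 made up 3.78, 3.45, 3.58, 4.55 and 4.23% and 1.25 to 3.78% (median 2.36%). IGHV7, a family that includes the V gene of classical antibodies to phosphorylcholine, made up 3.24, 2.17, 2.57, 1.74 and 1.67% and 2.60 to 6.28% (median 4.08%). NOD-FMT 3 alone reached the NC range in IGHV3 and NOD-FMT 8 alone in IGHV9, and NC 1 alone reached the NOD-FMT range in IGHV7. The means were 3.41 ± 1.28 against 6.16 ± 1.40%, 2.41 ± 0.823 against 3.92 ± 0.461% and 4.17 ± 1.29 against 2.28 ± 0.647% (exact permutation test, p = 0.00533, 0.00333 and 0.00533, adjusted p = 0.0266 for each), and 3 of 15 families passed, or 20%.

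Several family calls were lost when mice or clonotypes were left out, mostly with differences of similar size. None of the 15 passed without the clonotypes of PBS-T 5, without NC 2 and NC 3, or without NC 3, NC 4 or NC 5 alone, while without NC 1 only IGHV7 passed and without NC 2 IGHV3 and IGHV9 did. With any 1 mouse left out the differences ran from -3.05 to -2.30 points for IGHV3, from -1.66 to -1.35 for IGHV9 and from 1.66 to 2.13 for IGHV7, against -2.76, -1.51 and 1.89 with all mice. Without NC 2 and NC 3 they were -3.41, -1.78 and 1.95, and without the clonotypes of PBS-T 5 they were -2.26, -0.875 and 1.97, where IGHV9 alone shrank by more than 1.5 times. With at least 5 counts 4 of 15 families passed, or 26.7%, and IGHV9 was not among them (2.58 against 3.02%, exact permutation test, p = 0.332). IGHV3 stood at 3.39 ± 0.733% in NOD-FMT and 5.95 ± 0.803% in NC mice, IGHV7 at 4.41 ± 1.38 and 1.96 ± 0.709% (exact permutation test, adjusted p = 0.00999 for both), IGHV6 at 5.45 ± 1.59 and 2.85 ± 0.468% (adjusted p = 0.0133 in the same exact test) and IGHV10 at 4.65 ± 1.37 and 2.49 ± 0.846% (exact permutation test, adjusted p = 0.0300). These 4 passed without the clonotypes of PBS-T 5 also. At this minimum PBS-T means were 4.92% for IGHV3, 3.65% for IGHV7, 3.67% for IGHV6 and 1.76% for IGHV10. The PBS-T range of IGHV7, 1.92 to 8.21%, spanned that of NOD-FMT mice, 2.54 to 6.31%. Family usage of PBS-T mice was not tested. With at least 5 counts and without NC 2 and NC 3 the smallest adjusted p was 0.0524, of IGHV3 and IGHV7 (exact permutation test). The smallest p of the exact permutation test with 3 NC mice is 0.00699, at which 1 or 2 families cannot pass the adjustment over 15.

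At the level of genes, IGHV3-6 and IGHV1-58 were used by a smaller and IGHV14-3 by a larger share of NOD-FMT clonotypes. IGHV3-6 (chr12:114288152-114288582) made up 4.32, 3.35, 4.22, 4.84 and 3.67% of clonotypes in NC 1 to NC 5 and 1.31 to 2.87% in NOD-FMT mice, with a median of 1.69%. The groups did not overlap, and the log2 fold change was -1.15 (SE 0.26, edgeR quasi-likelihood test, adjusted p = 0.0112). IGHV14-3 (chr12:114059845-114060321) made up 0.647, 0.887, 1.38, 0.774 and 1.22% in NC mice and 1.10 to 4.79% in NOD-FMT mice, with a median of 2.52% (log2 fold change 1.41, SE 0.38, edgeR adjusted p = 0.0267). NC 3 and NC 5 reached the lowest NOD-FMT value.

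IGHV1-58 (chr12:115312166-115312599) was a rare gene, with 6, 11, 8, 7 and 5 clonotypes in the NC mice and 16 in all NOD-FMT mice together, 3 of which had none. Its share was 0.557 to 1.08% in NC and 0 to 0.359% in NOD-FMT mice (log2 fold change -2.34, SE 0.62, edgeR adjusted p = 0.0267), with no overlap. These were 3 of the 70 genes tested, or 4.29% (1.43% higher and 2.86% lower in NOD-FMT mice), and 13 had an unadjusted p under 0.05. Without the clonotypes of PBS-T 5 all 3 still passed. Without NC 2 and NC 3 no gene did (IGHV3-6 -1.22, edgeR adjusted p = 0.0589, IGHV14-3 1.57, adjusted p = 0.144), and IGHV1-58 fell below the minimum mean of 3 clonotypes and was not tested. No gene passed without NC 4 either (IGHV3-6 -1.08, IGHV14-3 1.33, IGHV1-58 -2.37, smallest edgeR adjusted p = 0.0528). Among libraries not marked as merged none of the 3 passed (log2 fold change -1.14 for IGHV3-6, 0.99 for IGHV14-3 and -1.98 for IGHV1-58, edgeR adjusted p = 0.0870, 0.190 and 0.136), and the 1 gene called there was IGHV10-1 (log2 fold change 1.77, edgeR adjusted p = 0.00708). IGHV14-3 also lost its call in IgA sequences only (1.31, edgeR adjusted p = 0.0896) and without NOD-FMT 6, NC 1 or NC 2 (1.27, 1.29 and 1.37, edgeR adjusted p = 0.0616, 0.106 and 0.0655) and IGHV1-58 without NC 1 or NC 2 (-2.39 and -2.17, edgeR adjusted p = 0.0625 and 0.0655). The number of calls was 1 without NC 1 or NC 2, 5 without NOD-FMT 1, NOD-FMT 10 or NC 5 and 7 without NOD-FMT 5.

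**Figure D4:**
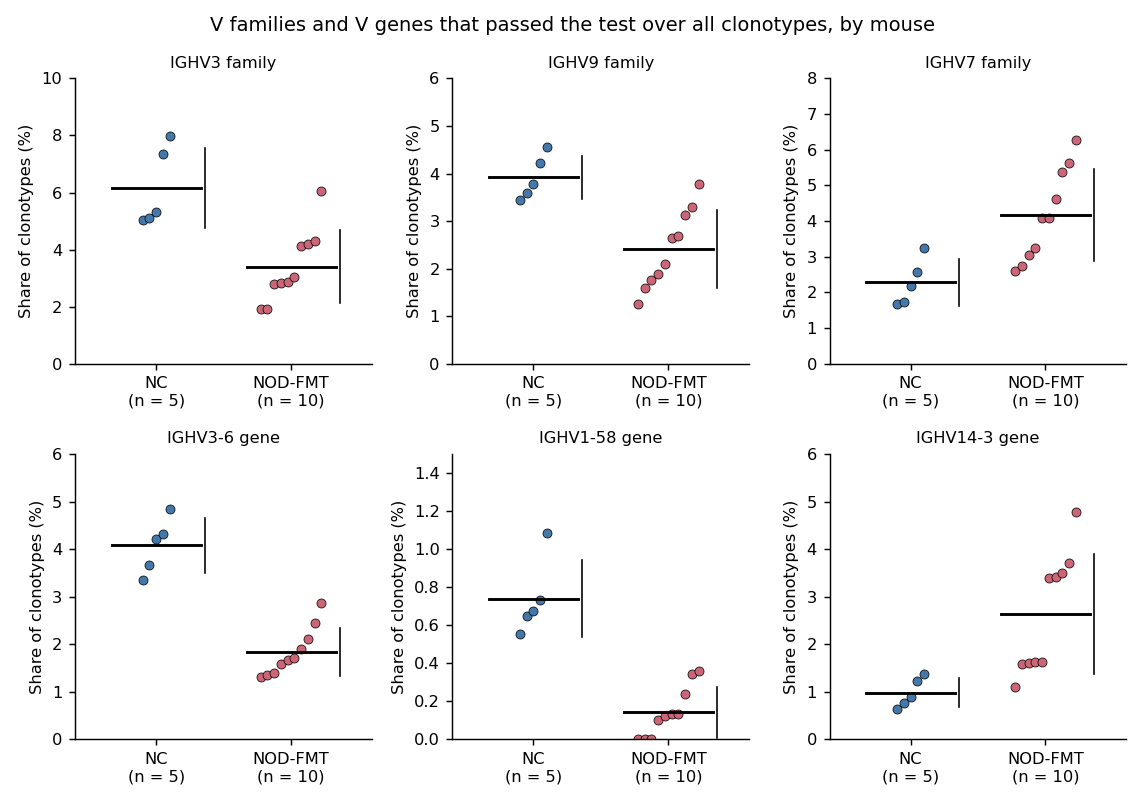
Percent of clonotypes per mouse that used the IGHV3, IGHV9 and IGHV7 families and the IGHV3-6, IGHV1-58 and IGHV14-3 genes is plotted for 5 NC and 10 NOD-FMT mice, with the mean as a bar and the SD as a thin line. IGHV3-6 and IGHV1-58 separate the groups, while IGHV14-3 and the 3 families overlap at their nearest mice.

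With at least 5 counts per clonotype 10 of 44 genes passed, or 22.7%, 5 in each direction, or 11.4% each. IGHV14-3 had the smallest adjusted p of the higher ones (1.34 to 4.72% in NOD-FMT and 0.779 to 1.70% in NC mice, log2 fold change 1.57, SE 0.37, edgeR adjusted p = 0.00161). IGHV6-3 followed with 1.11 to 5.84% and 0.431 to 1.91% (log2 fold change 1.32, edgeR adjusted p = 0.00420), then IGHV7-3 with 1.97 to 5.25% and 0.431 to 2.08% (log2 fold change 1.14, edgeR adjusted p = 0.00982), IGHV10-1 (1.08) and IGHV1-59 (1.08). Of the lower ones IGHV1-18 (chr12:114682632-114683065) had 0.590 to 2.39% and 1.38 to 6.81% (log2 fold change -1.39, edgeR adjusted p = 0.000703), followed by IGHV1-15 (-2.10), IGHV1-19 (-1.15), IGHV3-6 (-0.77) and IGHV1-26 (-0.54). All 10 were taken as called by edgeR, and the genes other than those named above were listed after their values were seen. Without NC 2 and NC 3, IGHV14-3 (1.87) and IGHV6-3 (1.75) were the 2 of 42 that passed (edgeR adjusted p = 0.0158 for both).

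The V genes most used by NC clonotypes were IGHV1-26, IGHV1-53, IGHV3-6, IGHV1-64 and IGHV1-18. IGHV1-26 stood at 7.68% of clonotypes in NC and 5.46% in NOD-FMT mice (edgeR adjusted p = 0.211) and IGHV1-64 at 3.77 and 4.05%. IGHV1-18 stood at 3.69 and 1.88% (edgeR adjusted p = 0.0883). IGHV1-53 (chr12:115158403-115158835), the gene of 3 of the 5 leading NC clonotypes, took 6.82 and 4.90% of clonotypes (edgeR adjusted p = 0.187) but 20.7, 19.7, 24.8, 21.6 and 4.94% of counts in NC 1 to NC 5, against a median of 4.77% and at most 16.6% in NOD-FMT mice. NC 5 was the low one of the NC mice, and the difference in counts did not pass (edgeR adjusted p = 0.207). By counts 1 of 70 genes passed, or 1.43%, IGHV8-5, which reached 3.62% of counts in NOD-FMT mice and at most 0.00353% in NC mice (edgeR adjusted p = 0.0487). That call was lost without any 1 of the 5 NC mice, or without NOD-FMT 2, 4, 6, 7, 9 or 10, when no gene passed, while 2 genes passed without NOD-FMT 3.

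The lists of IGHV11 and IGHV12, IGHV7 and IGHV6 genes, chosen with earlier results of these data known, gave no call over all clonotypes. Of the 4 IGHV11 and IGHV12 genes, which B-1 cells use for antibodies to membrane lipids, only IGHV11-2 was common enough to test (log2 fold change -0.53, edgeR adjusted p = 0.807), and NC 2, whose leading clonotype used it, had the highest share of clonotypes at 1.77%. Of the 3 IGHV7 genes 2 were tested, both higher in NOD-FMT mice with a median log2 fold change of 0.87 and none called. Of the 3 IGHV6 genes 2 were tested, both higher with a median of 0.32 and none called. Over all 70 genes the median was 0.03 and 36 were higher. Among clonotypes with at least 5 counts, IGHV7-3 of 2 tested IGHV7 genes and IGHV6-3 of 2 tested IGHV6 genes passed. Of all genes tested at this minimum 10 of 44 passed, or 22.7%.

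J gene usage did not differ past the threshold for any of the 4 genes, or 0%. IGHJ1 made up 16.7 ± 3.35% of clonotypes in NOD-FMT and 19.04 ± 3.80% in NC mice, IGHJ2 33.6% in both, IGHJ3 25.4 and 23.7% and IGHJ4 24.3 and 23.7%.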

How the data were processed

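Lacrimal gland heavy chain transcripts of 10 NOD-FMT, 5 untreated (NC) and 9 PBS-T mice were analyzed, with the mouse as the unit. The design text names 10 PBS mice; 9 were used here. The authors merged read pairs with PEAR, built consensus sequences per molecular identifier with Clustal Omega, and assigned V(D)J genes with IgBLAST and isotypes by alignment to IMGT constant genes. The release of the germline set is not given in the sources used here, and the labels name mm10. The deposited tables hold 1 row per unique sequence with its count of consensus sequences, and the counts were used as deposited. The deposited mutation column was read as a number of V mismatches. The fractions deposited beside the counts were not used.

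Sequences identical in 3 or more of the 24 LG libraries were removed, after the study's rule for sequences found in more than 2 mice. Applied here to the deposited LG tables, it removed 0.143 to 39.8% of the counts of a library, which in the libraries of the largest share is more than the study states for its own removal, so the filtered tables differ from those of the study. Among the alternatives are no removal at all and removal of sequences in 2 or more LG libraries. Clonotypes joined V gene, J gene and HCDR3 amino acids. Means over clonotypes counted each clonotype once. Group differences were tested by exact two-sided permutation over mice (3003 splits of 15 mice, smallest p 0.000666), with Benjamini-Hochberg adjustment over 10 measures, 8 constant genes, 4 J genes or 15 V families and a threshold of 0.05. V genes with a mean of at least 3 clonotypes, 70 in all, were tested with the quasi-likelihood test of edgeR 4.0.16 (R 4.3.3) on numbers of clonotypes and on counts, with library totals as the scale. All 70 symbols matched the GENCODE M21 annotation of GRCm38, from which coordinates came. DESeq2 1.42.0 and the other alternatives are described in the closing section. Python 3.11.15, numpy 2.4.6, pandas 2.3.3, SciPy 1.17.1 and matplotlib 3.10.9 were used. On simulated clonotype numbers with 20 of 70 genes changed, the edgeR test found 16.5% of 2-fold and 61.8% of 3-fold changes. Genes named were those called, up to 10 in each direction, the 5 most used in NC mice and 3 lists (IGHV11 and IGHV12, IGHV7, IGHV6), and clonotypes named were the largest of each mouse and the 5 most widely held of each group alone and of both. The comparison, the measures and these lists were chosen with earlier results of these data known. PBS-T and NC mice each enter comparisons with the same NOD-FMT mice.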

Additional observations from a re-analysis of the deposited data

Results flagged for a closer look

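Single mice stood far from the rest of their group in 12 of 70 sets of values examined (1 quantity in 1 group each). Among the 5 NC mice, NC 2 had the lowest IgA share, 88.6% of counts with the next at 96.7%, the highest IGHG2C share, 3.57% with the next at 0.539%, the highest IGHM share, 3.50% with the next at 1.10%, and the highest IGHV11 share, 1.77% of clonotypes with the next at 0.223%. NC 4 had 0.0740% IGHD with the next at 0.0223%. Among the 10 NOD-FMT mice, NOD-FMT 3 had 0.369% IGHG1 (next 0.121%), 33.9% IGHJ4 (next 26.2%) and 0.395% IGHV12 (next 0.120%). NOD-FMT 4 had 0.197% IGHG3 (next 0.0250%), NOD-FMT 6 had 0.958% IGHV11 (next 0.487%), NOD-FMT 9 had 3.53% IGHM (next 1.62%) and NOD-FMT 10 had 9.98% IGHV2 (next 6.59%). Each gap to the nearest other mouse, over the range of the group, was above the 95% limit of Dixon's test. For values with a normal distribution, chance passes this limit in about 1 of 20 groups. Many of these values are small shares, and the isotype shares of a mouse are parts of 1 whole, so that rate may not hold here. NC 2 shared 806 sequences with NC 3, and 3 with NC 4 that made up 12.7% of NC 2 counts.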

How the results depend on the processing

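With any 1 mouse left out, the charge difference over all clonotypes and the charge, mutation and germline differences at 5 counts or more kept their direction and call. Direct limits are the 5 NC mice, of which NC 2 and NC 3 shared sequences, and depth for rare clonotypes. Where a result changed, the cause was not tested. The alternative of sequences with a single V gene call was not run, since 0 sequences had more than 1. Alternatives added after the data were seen were the joining of minor clonotypes (to one at least 20 times as abundant with an HCDR3 differing at 1 residue or none), libraries under 100000 counts, clonotypes of PBS-T 5 left out, and combinations with the minimum of 5 counts.

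Differences are NOD-FMT minus NC. Charge lost its call with sequences in 2 or more LG libraries removed (0.209), by counts (0.193), without merged libraries (0.312), without NC 2 and NC 3 (0.260) and under 100000 counts (0.0843). Its p without merged libraries and without NC 2 and NC 3 was the smallest possible there (exact permutation test, p = 0.0286 and 0.00699). V mutations and the germline-containing share passed with at least 2 counts (-1.21 and 18.1), at least 5 counts (-1.45 and 21.9), thinning to equal depth (-0.915 and 13.9), clonotypes by nucleotides (-0.841 and 12.98), counts (-1.195 and 24.2), IgA only (-1.08 and 16.3) and joining (-1.07 and 17.8). Length passed with at least 5 counts (-0.338) and joining (-0.277), and turned by counts (0.0406) and without merged libraries (0.0790). Hydropathy passed with at least 5 counts (-0.0388) and joining (-0.0418) and turned by counts (0.0619). At 5 counts or more, calls were lost without merged libraries (length -0.266, charge 0.268, mutations -1.64, germline 24.5), under 100000 counts (-0.239, 0.197, -1.52, 21.0) and, for length, without NC 2 and NC 3 (-0.245). Hydropathy at 5 counts or more lost its call under the same settings (-0.0132, -0.0397 and -0.0281).

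Values that passed no test turned as follows. The IgA share turned with each clonotype once per isotype (-0.162), by medians in the exact Mann-Whitney test (-0.460) and without NC 2 and NC 3 (-0.532). The log2 number of clonotypes turned with thinning (-0.21), medians (-0.043), joining (-0.33) and under 100000 counts (-0.34), and evenness with thinning (0.00189) and joining (0.00854). The largest clonotype turned with no contamination filter (1.54), without NC 2 and NC 3 (1.30) and under 100000 counts (2.96), and the 10 largest with the same (2.65, 2.17, 3.78), IgA only (0.0357), medians (3.04) and joining (0.0792). IGHD turned with at least 5 counts (0.000266). IGHE (0.000341), IGHG2B (0.325), IGHG2C (0.0412), IGHM (0.203) and IGHV6-6 (-0.15) turned without NC 2 and NC 3. With each clonotype once per isotype IGHG1 (0.0533), IGHG2B (1.56) and IGHM (0.295) turned, by medians IGHG2B (0.505) and IGHG2C (0.0329), and under 100000 counts IGHG1 (0.0194) and IGHV1-64 (-0.42). Without merged libraries IGHG3 (-0.00137), IGHV14 (-0.362) and IGHV5 (-9.22e-05) turned, by counts IGHV4 (-0.149), and with joining IGHJ3 (-0.292) and IGHV1-64 (-0.15). IGHJ2 turned with sequences in 2 or more LG libraries removed (-0.116), at least 2 (-0.312) or 5 counts (-0.303), counts (-4.39), IgA only (-0.335), medians (-0.540) and without merged libraries (-1.66).

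Of V families, 0 passed with sequences in 2 or more LG libraries removed, by counts, without merged libraries, without NC 2 and NC 3, without the clonotypes of PBS-T 5 or under 100000 counts, and 5 with joining. Without merged libraries IGHV3, IGHV7, IGHV9 and IGHV10 had the smallest possible p (exact permutation test, p = 0.0286, adjusted p = 0.107). Their differences were -3.15, 2.33, -1.80 and 3.12 points. A pass there needs many families at that p, so 0 calls is no measure of the size of the differences. Of V genes by clonotypes, 0 passed without NC 2 and NC 3, 1 without merged libraries (IGHV10-1), 5 with at least 2 counts, thinning, no filter on low values or the exact permutation test, 6 without the clonotypes of PBS-T 5 or by DESeq2 with its own factors, 7 by DESeq2 with library totals, 10 with at least 5 counts, with this and no clonotypes of PBS-T 5, or under 100000 counts, 17 with joining, and 2 with at least 5 counts and no NC 2 and NC 3. Of V genes by counts, 0 passed with no contamination filter, at least 5 counts, that without PBS-T 5 clonotypes or without NC 2 and NC 3, nucleotides, thinning, IgA only, no merged libraries, or no NC 2 and NC 3, and 2 under 100000 counts, with TMM factors, both DESeq2 fits and the permutation test.

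The replicate numbers do not pair the mice (correlations of same-numbered mice -0.320, -0.000591, 0.0279, 0.106 and -0.0190). With the replicate number as a block, on the 5 numbers both groups have, charge was 0.225 and lost its call, the largest clonotype (2.75), the 10 largest (5.07), IGHG1 (0.0134), IGHJ2 (-0.0959) and IGHV1-64 (-0.10) turned, and 0 V families, 1 V gene by clonotypes and 0 by counts passed. The smallest p of the 5 pairs is 0.0625.

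Leaving out 1 mouse gave ranges of -0.848 to -0.652 for V mutations, 9.95 to 12.8 for the germline-containing share, -0.398 to -0.253 for length and -0.0447 to -0.0276 for hydropathy at 5 counts or more, -0.644 to 1.64 for IgA, -1.62 to 0.944 for the largest clonotype and -3.08 to 4.54 for the 10 largest. The ranges were -0.492 to 0.341 for IGHG2B, -0.779 to 0.0534 for IGHG2C, -0.00294 to 0.0228 for IGHG3, -0.506 to 0.295 for IGHM, -0.711 to 0.650 for IGHJ2, -0.477 to 1.34 for IGHJ4, -0.031 to 0.22 for IGHV1-64 and -0.056 to 0.18 for IGHV6-6. Calls numbered 0 to 4 of V families, 0 to 7 of V genes by clonotypes, 0 to 2 by counts and 1 to 2 of the measures against PBS-T mice.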
